A study of Homo sapiens with 18 samples.

Results

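Macroautophagy delivers cytoplasm to the lysosome inside a double membrane, and the transcripts of 35 genes of its core machinery and cargo receptors are described here, of 22465 genes with a value, in human bladder cancer cells given palbociclib. The ULK kinase complex starts the process and the class III PI3-kinase complexes then mark the membrane with PI3P. WIPI proteins read that lipid and ATG2 proteins feed in membrane, while ubiquitin-like conjugation fixes ATG8 proteins to the growing sheet. Receptors such as SQSTM1 bind cargo on one side and ATG8 proteins on the other, and are themselves degraded with the cargo. A transcript level does not measure this flux.

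The genes were taken by symbol from a list drawn up with earlier results of these data known, and sorted into 6 roles: 6 genes of initiation (the ULK complex with ATG9A), 5 of the class III PI3-kinase complexes, 4 PI3P effectors and lipid transfer proteins, 10 of conjugation with the ATG4 proteases, 5 of the ATG8 family and 5 receptors. All 35 had a single transcript cluster with 1 symbol, no filter on low values was set, and so all 35 were tested.

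The groups were J82 cells with palbociclib, a CDK4 and CDK6 inhibitor, at its IC50, J82 cells with PBS, RT112 cells with palbociclib at its IC50 and RT112 cells with PBS. Each group had 3 arrays, and the 3 are described in the labels as separate dishes, so the p-values measure the spread between dishes of 1 established line. All cells grew in DMEM with serum. The concentration and the length of exposure are not given in the sources used here. In RNA from a whole dish, fewer cells holding a transcript and less of it per cell cannot be told apart. Another line of the series, 5637, was not used for genes, since its mean values over 67528 transcript clusters correlated with those of J82 at r = 0.027, where RT112 correlated with J82 at r = 0.94 (across rows, which are not replicates).

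Array medians over genes lay between 5.30 and 5.61 on the deposited log2 scale. RT112 palbociclib replicate 1 stood apart, with the highest median (5.61, against 5.33 and 5.30 in its partners) and the lowest correlations with them (0.983 at most). The values of the autophagy genes on that array were the lowest of the 3 for 23 of 35 genes, and on J82 palbociclib replicate 3 they were the highest of the 3 for 26 of 35. Counts are therefore also given without these arrays. Of 7 epithelial markers, 5 were higher in RT112 with PBS than in J82 with PBS, and KRT8 (-2.32) and KRT18 (-1.85) were lower. In RT112 CDH1 had 13.57 with palbociclib and 13.51 with PBS, whereas in J82 it was at the array median (5.33 and 5.68). KRT18 was high in both lines, with 11.28 with palbociclib and 12.53 with PBS in RT112, and 11.82 and 14.38 in J82. The immune and endothelial markers PTPRC and PECAM1 were below the array medians in all 4 groups. The immune marker CD14 was near the array medians in J82 (5.48 with palbociclib and 5.25 with PBS) and below them in RT112 (3.99 in both groups). Of the proliferation markers MKI67, CCNA2, TOP2A and MCM2, 3 of 4 fell in J82 and 4 of 4 in RT112, with log2 differences for MKI67 of -1.40 in J82 and -3.71 in RT112. MCM2 stood at 0.49 in J82 (adjusted p = 0.0923), with its treated arrays above its controls. The part of cycling state in the autophagy values was not tested.

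Of the 35 autophagy genes, 13 rose in J82 under palbociclib and none fell, where 5.4% of all genes tested rose and 2.78% fell (8.18% in either direction). In RT112, 9 rose and none fell, where 4.95% of all genes rose and 3.53% fell (8.48% in either direction). A call means an adjusted p under 0.05 in limma, a linear model fitted over the 12 arrays of both lines and adjusted over all 22465 genes. At an unadjusted p under 0.05 there were 17 genes in J82 and 20 in RT112, all higher with palbociclib, where 19.4% and 18.4% of all genes passed in either direction. The median log2 difference of the 35 genes was 0.30 in J82 and 0.345 in RT112, against 0.04 and 0.035 over all genes. All genes include many dim ones, whereas 34 of the 35 are among the 11232 genes with a mean above the median of gene means. Fitted on those bright genes alone, 14 of the 34 rose in J82 and 13 in RT112, and none fell. Of the 11232, 12.7% rose and 6.37% fell in J82 (median 0.075), and 11.7% rose and 7.9% fell in RT112 (median 0.065). The difference was positive for 30 genes in J82 and for 31 in RT112, and ATG10 was the one gene below 0 in both, at -0.015 in J82 and -0.01 in RT112. Values reach 19.93, above the 16 that log2 of a 16-bit scan allows. No label or header names the step behind this, and it was not tested, so log2 differences are given on the deposited scale and not as folds of signal.

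By role, the calls were spread unevenly. In J82 the genes that rose were 3 of 6 in initiation, 2 of 5 in the PI3-kinase complexes, 2 of 4 among PI3P effectors and lipid transfer, 1 of 10 in conjugation, 3 of 5 ATG8 genes and 2 of 5 receptors. In RT112 they were 0 of 6, 2 of 5, 2 of 4, 0 of 10, 1 of 5 and 4 of 5 in the same order of roles. Of all genes 5.4% rose in J82 and 4.95% in RT112, and of the bright genes fitted alone 12.7% and 11.7%. The counts in conjugation were near these shares. The median difference was highest for ATG8 genes, at 0.79 in J82 and 0.725 in RT112, and lowest for conjugation, at 0.21 and 0.045. The roles are small and these medians are descriptions, and differences between roles were not tested.

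**Figure D1:**
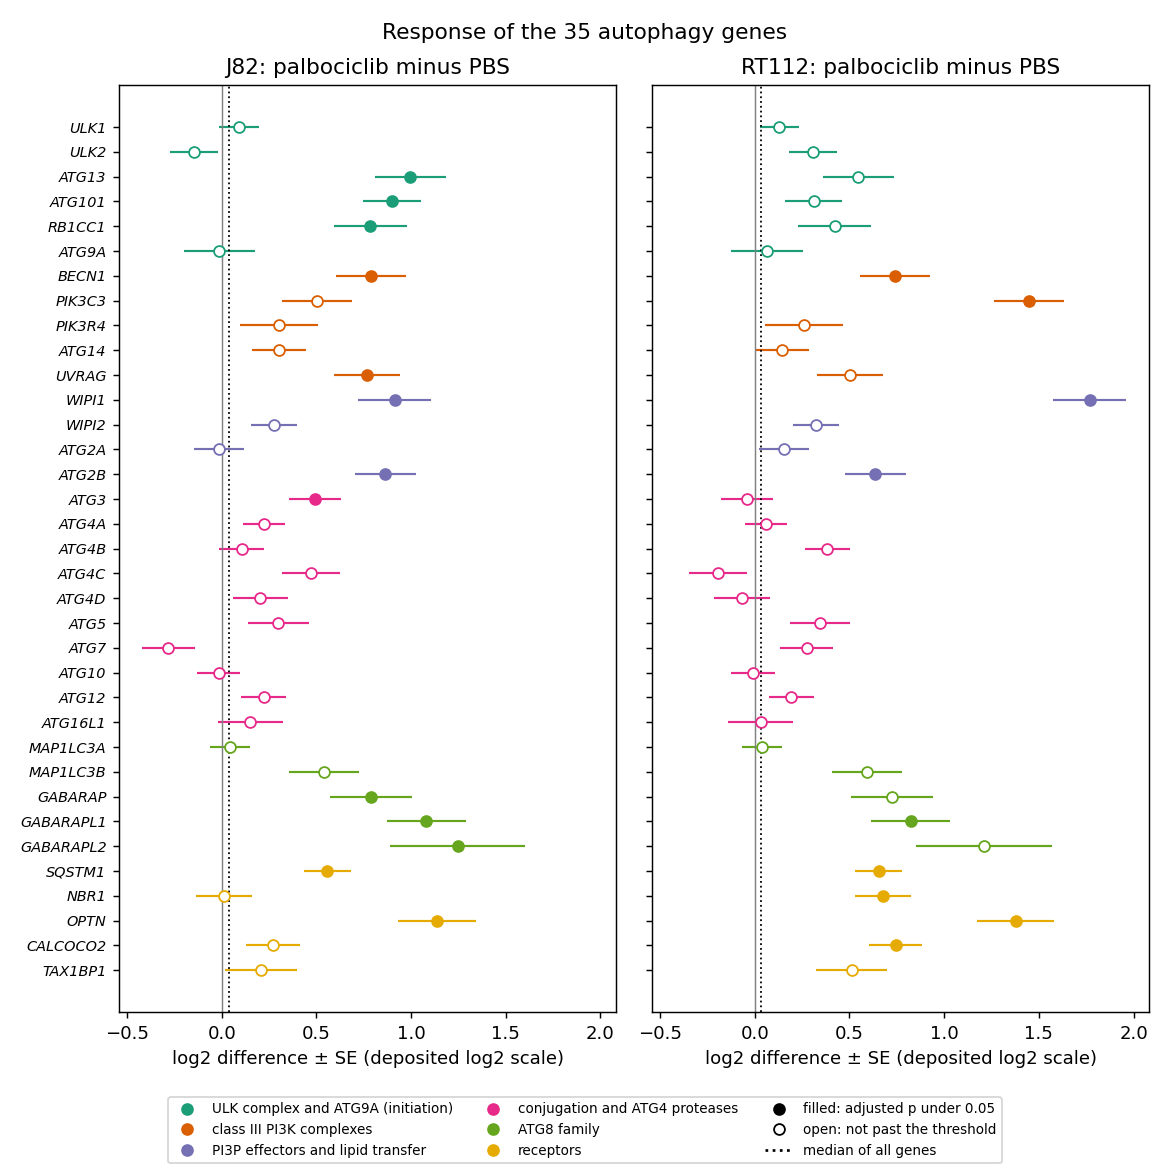
Log2 difference of palbociclib minus PBS (x axis, deposited log2 scale) for the 35 autophagy genes in J82 and RT112, with bars for the SE from limma (n = 3 arrays per group). Filled points passed an adjusted p under 0.05 (13 in J82 and 9 in RT112), and all of these lie to the right of 0. The conjugation genes have the lowest median of the 6 roles, 0.21 in J82 and 0.045 in RT112.

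The palbociclib and PBS arrays of J82 did not overlap for 18 genes that were higher and 1 that was lower (ATG7), where 16.1% and 7.82% of all genes did so. In RT112 they did not overlap for 23 genes, all higher, where 14.5% of all genes were separate in that direction. On single arrays the median deviation of the 35 genes from the PBS mean of the line was 0.285, 0.33 and 0.54 on J82 palbociclib replicates 1, 2 and 3, and between -0.02 and 0.02 on the J82 PBS arrays. It was 0.23, 0.46 and 0.475 on the RT112 palbociclib arrays and between -0.03 and 0.03 on the RT112 PBS arrays. All genes together had medians of 0.13 on J82 palbociclib replicate 3 and 0.19 on RT112 palbociclib replicate 1, so on RT112 palbociclib replicate 1 the autophagy genes stood only a little above the whole array.

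Without J82 palbociclib replicate 3, 9 genes rose in J82, with a median of 0.23 over the 35 genes, where 2.95% of all genes rose and 2.89% fell. Without RT112 palbociclib replicate 1, 11 rose in RT112, with a median of 0.46, where 8.09% of all genes rose and 5.11% fell. The count of 13 in J82 became 8 without PBS replicate 2 (3.68% of all genes rose) or without PBS replicate 3 (3.22%). That of 9 in RT112 became 5 without PBS replicate 3 (2.64%) or without palbociclib replicate 3 (2.53%), and 6 without PBS replicate 2 (2.42%). With every array moved to a common median the counts were 7 in J82 and 6 in RT112, and the split of all genes was then 830 higher and 695 lower in J82 (1213 and 624 on the deposited values) and 631 higher and 793 lower in RT112 (1112 and 793). Quantile normalization gave 12 higher autophagy genes in each line, where 5.46% of all genes rose in J82 and 6.45% in RT112. The split of all genes was then 1226 and 1075 in J82. With J82 fitted alone the count there was 6, where 2.98% of all genes rose. With array weights, which give less weight to arrays that deviate, that of RT112 was 22, where 14.4% of all genes rose and 11.3% fell.

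Each call was repeated under 23 alternatives, 11 other settings of the analysis and each of the 12 arrays left out in turn. These genes have a single row each, so the setting that averages the rows of a gene left their values unchanged. A required log2 difference of at least 0.5 was set on the main fit and could end only calls of a smaller difference. The common median ended the calls of RB1CC1, BECN1, ATG3, GABARAP, GABARAPL2 and SQSTM1 in J82 and of BECN1, ATG2B and GABARAPL1 in RT112. J82 fitted alone ended those of RB1CC1, UVRAG, WIPI1, ATG3, GABARAP, GABARAPL2 and SQSTM1, and RT112 fitted alone those of BECN1 and ATG2B. Adjusting over all 67528 transcript clusters left 9 calls in J82, without RB1CC1, ATG3, GABARAP and GABARAPL2. It left 6 in RT112, without BECN1, ATG2B and GABARAPL1. Of all clusters 2.02% then rose in J82 and 1.58% in RT112. GABARAP in J82 was also lost after quantile normalization and GABARAPL2 in J82 with array weights, and ATG3 in J82 was lost where a log2 difference of at least 0.5 was required. Calls lost without a single array are given with each gene.

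**Figure D2:**
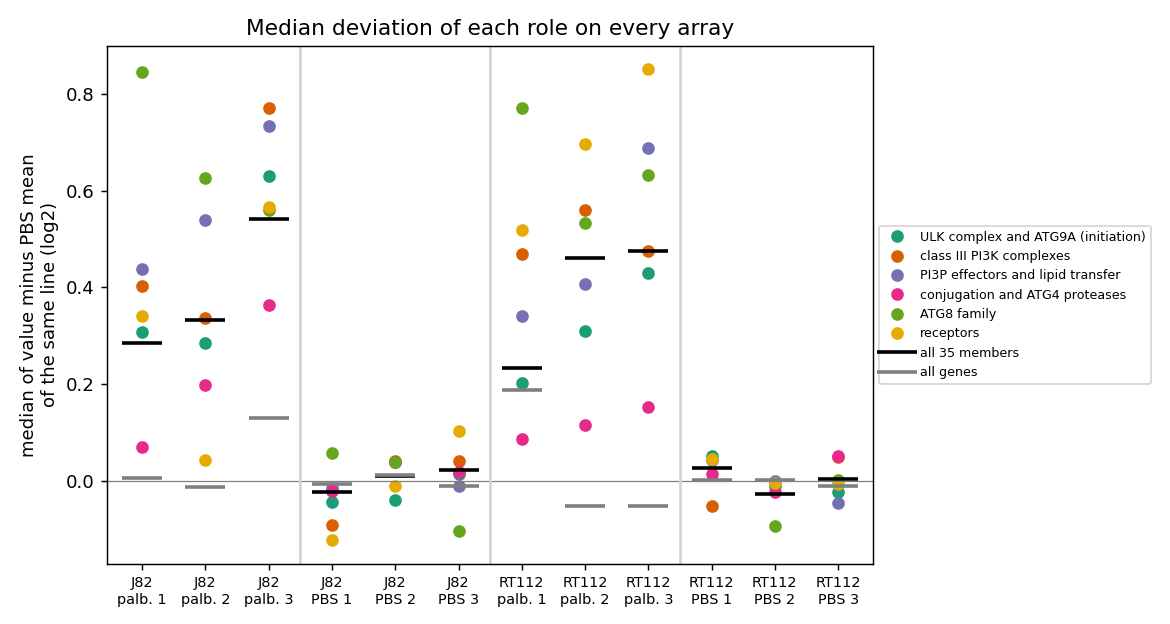
Median deviation from the PBS mean of the same line (y axis, log2) over the genes of each role on each of the 12 arrays (x axis), with black bars for all 35 genes and grey bars for all 22465. The black bars lie between 0.23 and 0.54 on palbociclib arrays and near 0 on PBS arrays, and the grey bar is raised on RT112 palbociclib replicate 1 (0.19).

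Subunits of the ULK complex, 3 of them, rose in J82. ATG13, an adaptor of the kinase, had 10.24, 9.73 and 10.28 in J82 with palbociclib, against 8.98, 9.02 and 9.26 with PBS. The groups did not overlap, and the difference was 1.00 ± 0.19 (SE, n = 3 per group, adjusted p = 0.00447). ATG101, which stabilises ATG13, had 6.81, 7.34 and 7.28 with palbociclib, against 6.12, 6.37 and 6.24 with PBS, a difference of 0.90 ± 0.15 (adjusted p = 0.0024). RB1CC1, the scaffold known as FIP200, had 8.05, 8.54 and 8.81 with palbociclib, against 7.92, 7.62 and 7.51 with PBS. Its palbociclib replicate 1 was close to the highest control, and the difference was 0.78 ± 0.19 (adjusted p = 0.0209). This last call was lost without PBS replicate 2 (0.755), PBS replicate 3 (0.70), palbociclib replicate 2 (0.75) or palbociclib replicate 3 (0.61), whereas ATG13 and ATG101 passed under all 23 alternatives.

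The kinases and the membrane protein of this role did not pass in J82. ULK1, the kinase of the complex, stood at 0.09 ± 0.10, its paralogue ULK2 at -0.15 ± 0.13 and ATG9A, the scramblase of the seed vesicles, at -0.01 ± 0.19. In RT112 none of the 6 genes passed. All 6 differences were positive, as were 13406 of the 22465 over all genes. For 5 of the 6 the groups did not overlap, where 14.5% of all genes were separate and higher. ATG13 had 8.02, 8.35 and 8.65 with palbociclib, against 7.89, 7.77 and 7.72 with PBS (0.55 ± 0.19, adjusted p = 0.1). It passed without palbociclib replicate 1 (0.70, adjusted p = 0.0294), the lowest of its 3 treated arrays. RB1CC1 stood at 0.42 ± 0.19, ATG101 at 0.31 ± 0.15 and ULK2 at 0.31 ± 0.13.

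In the class III PI3-kinase complexes, BECN1 passed in both lines. BECN1, the regulatory subunit beclin 1, had 8.47, 8.65 and 8.98 in J82 with palbociclib, against 7.98, 7.84 and 7.92 with PBS (0.79 ± 0.18, adjusted p = 0.0163). In RT112 it had 8.86, 8.98 and 9.47 with palbociclib, against 8.60, 8.27 and 8.22 with PBS (0.74 ± 0.18, adjusted p = 0.0222). In neither line did the groups overlap. The J82 call was lost without J82 PBS replicate 2 (0.75), J82 PBS replicate 3 (0.79) or J82 palbociclib replicate 3 (0.65). The RT112 call was lost without RT112 PBS replicate 2 (0.695), RT112 PBS replicate 3 (0.67) or RT112 palbociclib replicate 3 (0.56).

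PIK3C3, the lipid kinase VPS34, had 8.33, 8.50 and 8.70 in RT112 with palbociclib, against 7.01, 6.81 and 7.36 with PBS. The groups lay far apart and the difference was 1.45 ± 0.19 (adjusted p = 0.00015), past the threshold under all 23 alternatives. In J82 it had 10.60, 10.53 and 10.97 with palbociclib, against 9.98, 10.39 and 10.22 with PBS, and the difference of 0.50 ± 0.19 did not pass (adjusted p = 0.13). UVRAG, the subunit of the complex that acts on endosomes and late autophagosomes, had 8.80, 8.98 and 9.52 in J82 with palbociclib, against 8.12, 8.50 and 8.37 with PBS (0.77 ± 0.17, adjusted p = 0.0139). This call was lost without J82 PBS replicate 1 (0.66). In RT112 UVRAG stood at 0.50 ± 0.17 with separate groups (adjusted p = 0.107), and it passed when J82 palbociclib replicate 3, which enters the shared estimate of the spread, was left out (adjusted p = 0.0264). The autophagy-specific subunit ATG14 (0.30 ± 0.14 in J82, 0.14 ± 0.14 in RT112) and the pseudokinase subunit PIK3R4 (0.30 ± 0.21 and 0.26 ± 0.21) passed in neither.

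WIPI1, a PI3P-binding propeller protein, had the largest difference of the 35 genes in RT112. There it had 7.79, 7.84 and 8.30 with palbociclib, against 6.22, 6.37 and 6.04 with PBS (1.77 ± 0.19, adjusted p = 3.4e-05). In J82 it had 9.28, 9.32 and 9.96 with palbociclib, against 8.49, 8.68 and 8.64 with PBS (0.91 ± 0.19, adjusted p = 0.0092). All treated arrays lay above all controls in both lines, and of the 23 alternatives J82 fitted alone was the one that ended the J82 call (adjusted p = 0.0504). Its relative WIPI2, which recruits ATG16L1, stood at 0.275 ± 0.12 in J82 and 0.32 ± 0.12 in RT112 and did not pass.

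ATG2B, a bridge for lipids between the endoplasmic reticulum and the growing membrane, had 7.90, 8.01 and 8.27 in J82 with palbociclib, against 7.07, 7.29 and 7.22 with PBS (0.865 ± 0.16, adjusted p = 0.00466). ATG2B in RT112 had 7.62, 7.81 and 8.26 with palbociclib, against 7.34, 7.16 and 7.28 with PBS (0.64 ± 0.16, adjusted p = 0.0265). The groups were separate in both lines. The RT112 call was lost without RT112 PBS replicate 1 (0.675), 2 (0.59) or 3 (0.65) and without RT112 palbociclib replicate 2 (0.68) or 3 (0.45). The paralogue ATG2A stood at -0.015 ± 0.13 in J82 and 0.155 ± 0.13 in RT112.

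Of the 10 genes of conjugation and ATG8 processing, 1 passed in J82 and none in RT112, where 5.4% and 4.95% of all genes rose. ATG3, the E2-like enzyme that hands ATG8 proteins to lipid, had 8.32, 8.62 and 8.61 in J82 with palbociclib, against 7.95, 8.04 and 8.09 with PBS (0.49 ± 0.14, adjusted p = 0.0411). In RT112 it stood at -0.04 ± 0.14, with overlapping groups. The J82 call was at the threshold: it was lost without J82 PBS replicate 1 (0.46), 2 (0.50) or 3 (0.52), without J82 palbociclib replicate 2 (0.44) or 3 (0.45), and without RT112 PBS replicate 1, 2 or 3 or RT112 palbociclib replicate 2, which leave the difference at 0.49. The E1-like enzyme ATG7 stood at -0.28 ± 0.14 in J82, with all treated arrays below all controls, and at 0.27 ± 0.14 in RT112. It passed in J82 as lower after quantile normalization alone.

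Of the other conjugation genes none passed in either line. The E2-like ATG10 had 6.33, 6.44 and 6.62 in J82 with palbociclib, against 6.54, 6.55 and 6.33 with PBS, and in RT112 6.81, 6.72 and 6.65, against 6.74, 6.73 and 6.74. ATG5 (0.30 in J82 and 0.345 in RT112), its ubiquitin-like partner ATG12 (0.22 and 0.19) and the scaffold ATG16L1 (0.15 and 0.03) did not pass. Among the ATG4 proteases, which cut ATG8 proteins before and after conjugation, ATG4C stood at 0.47 ± 0.15 in J82 (adjusted p = 0.0817) and -0.19 ± 0.15 in RT112. ATG4B stood at 0.105 ± 0.12 in J82 and 0.38 ± 0.12 in RT112 (adjusted p = 0.0679), and the RT112 value passed without RT112 palbociclib replicate 1 (0.48, adjusted p = 0.00928). ATG4A (0.22 and 0.06) and ATG4D (0.20 and -0.07) did not pass. The treated arrays lay above all controls for ATG4A and ATG4C in J82, for ATG4B and ATG5 in RT112 and for ATG12 in both lines. Of all genes 16.1% were separate in that direction in J82 and 14.5% in RT112. ATG4C passed in J82 with bright genes only and with the replicate number entered in the fit as a block. ATG4B passed in RT112 with bright genes only, after quantile normalization, without the intensity trend and with array weights.

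In the ATG8 family the calls all fell on genes of the GABARAP branch, and a difference between the branches was not tested. GABARAPL1 had 10.06, 9.66 and 10.04 in J82 with palbociclib, against 8.36, 8.88 and 9.28 with PBS (1.08 ± 0.21, adjusted p = 0.00572). GABARAPL1 in RT112 had 7.59, 7.20 and 7.67 with palbociclib, against 6.62, 6.60 and 6.77 with PBS (0.82 ± 0.21, adjusted p = 0.026). The groups were separate in both lines. The J82 call held under all 23 alternatives, while the RT112 call was lost without RT112 PBS replicate 1 (0.80), 2 (0.79) or 3 (0.88), without RT112 palbociclib replicate 1 (0.77) or 3 (0.73).

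GABARAPL2 had the largest difference of the 35 genes in J82 and also the widest spread. It had 9.61, 10.24 and 10.84 in J82 with palbociclib, against 9.04, 9.50 and 8.40 with PBS (1.25 ± 0.36, adjusted p = 0.0479). GABARAPL2 in RT112 had 9.36, 10.07 and 10.59 with palbociclib, against 8.84, 8.46 and 9.09 with PBS (1.21 ± 0.36, adjusted p = 0.0537). The differences were alike in size, the groups were separate in both lines, and the 2 values fell on either side of the threshold. The J82 call was lost without J82 PBS replicate 1 (1.275) or 3 (0.96), without J82 palbociclib replicate 2 (1.24) or 3 (0.94), without RT112 PBS replicate 1, 2 or 3 and without RT112 palbociclib replicate 2. The RT112 value passed without RT112 palbociclib replicate 1 (1.535, adjusted p = 0.0211) and without J82 PBS replicate 3, J82 palbociclib replicate 1 or J82 palbociclib replicate 3. With the replicate block the RT112 value passed as well.

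GABARAP had 11.11, 10.54 and 10.45 in J82 with palbociclib, against 10.05, 9.86 and 9.84 with PBS (0.79 ± 0.22, adjusted p = 0.0389). GABARAP in RT112 had 8.43, 7.86 and 7.87 with palbociclib, against 7.68, 7.19 and 7.10 with PBS (0.725 ± 0.22, adjusted p = 0.0563). The J82 call was lost without J82 PBS replicate 1 (0.86), 2 (0.76) or 3 (0.75), without J82 palbociclib replicate 1 (0.58) or 2 (0.87) and without RT112 PBS replicate 2. The RT112 value passed without J82 palbociclib replicate 1, without RT112 PBS replicate 1 (0.90) and with the replicate block.

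MAP1LC3B, the gene of the widely used autophagosome marker LC3B, had 7.80, 7.18 and 7.52 in J82 with palbociclib, against 7.34, 6.76 and 6.77 with PBS (0.54 ± 0.185, adjusted p = 0.0993). MAP1LC3B in RT112 had 7.17, 6.78 and 7.03 with palbociclib, against 6.49, 6.31 and 6.41 with PBS (0.59 ± 0.185, adjusted p = 0.0687). The groups overlapped in J82 and were separate in RT112, and neither value passed in the main fit. With the replicate block both passed. The J82 value passed without J82 PBS replicate 1 (0.73) or J82 palbociclib replicate 2 (0.70), and that of RT112 without J82 PBS replicate 1 or J82 palbociclib replicate 1 or 2. Its near-identical relative MAP1LC3B2 stood at 0.40 in J82 and 0.24 in RT112, and how far the probes of the pair, or those of GABARAPL1 and its processed copies, share signal was not tested. MAP1LC3A lay below the array medians in all 4 groups (4.42 and 4.38 in J82, 4.50 and 4.46 in RT112, palbociclib and PBS), where background limits any difference.

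**Figure D3:**
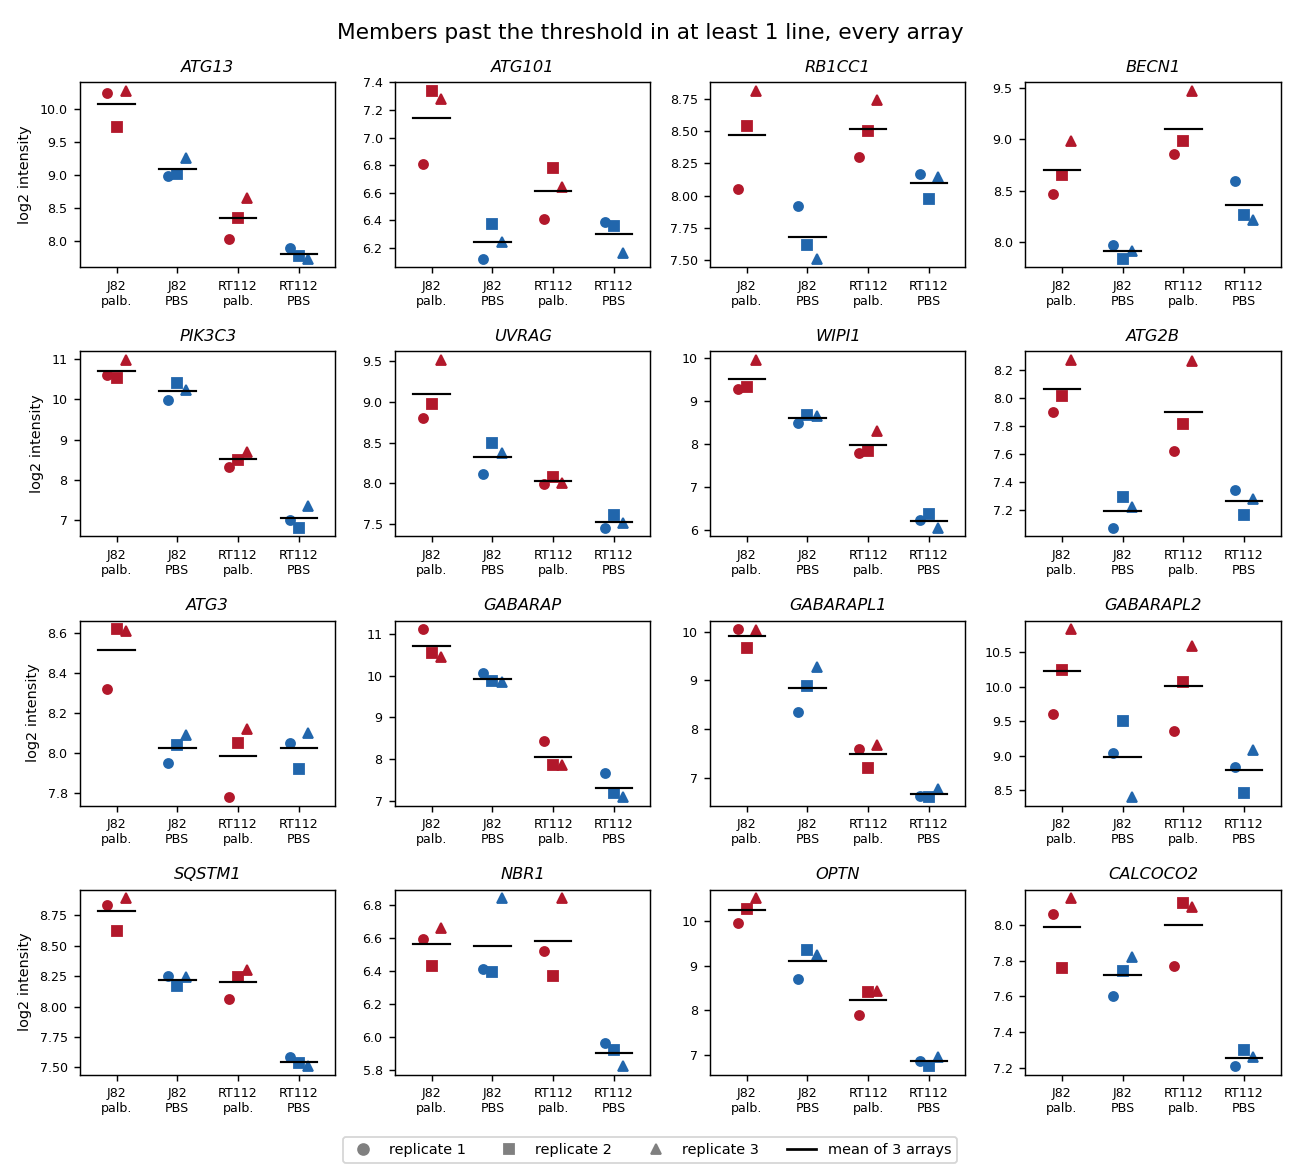
Deposited log2 intensity (y axis) on every array for the 16 autophagy genes past the threshold in at least 1 line, with palbociclib in red, PBS in blue, symbols for replicates and bars for the mean of 3 arrays. OPTN and WIPI1 show separate groups in both lines and a lower level in RT112 than in J82, and each panel has its own axis, which does not start at 0.

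Among the receptors, OPTN was the gene whose calls held under all 23 alternatives in both lines. OPTN, optineurin, which links ubiquitylated mitochondria and bacteria to ATG8 proteins, had 9.94, 10.25 and 10.50 in J82 with palbociclib, against 8.71, 9.34 and 9.24 with PBS (1.14 ± 0.21, adjusted p = 0.00352). In RT112 it had 7.89, 8.41 and 8.43 with palbociclib, against 6.87, 6.76 and 6.97 with PBS (1.38 ± 0.21, adjusted p = 0.000614). The lowest treated array lay above the highest control in each line.

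SQSTM1, the receptor p62, had 8.83, 8.62 and 8.89 in J82 with palbociclib, against 8.25, 8.17 and 8.24 with PBS, and in RT112 8.06, 8.24 and 8.30, against 7.59, 7.54 and 7.51. The arrays of a group lay close together and the groups were separate in both lines. The differences were 0.56 ± 0.125 (adjusted p = 0.0128) and 0.65 ± 0.125 (adjusted p = 0.0043), of which the J82 call was lost without J82 PBS replicate 2 (0.53).

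CALCOCO2, the receptor NDP52, had 7.77, 8.12 and 8.10 in RT112 with palbociclib, against 7.21, 7.30 and 7.26 with PBS (0.74 ± 0.14, adjusted p = 0.00423), a call that held under all 23 alternatives. In J82 it stood at 0.27 ± 0.14, and its groups overlapped. NBR1, a receptor related in structure to SQSTM1, had 6.52, 6.37 and 6.84 in RT112 with palbociclib, against 5.96, 5.92 and 5.82 with PBS (0.68 ± 0.15, adjusted p = 0.0106). This call was lost without RT112 PBS replicate 3 (0.64) or RT112 palbociclib replicate 3 (0.55). In J82 NBR1 stood at 0.01 ± 0.15, with 6.59, 6.43 and 6.66 with palbociclib, against 6.41, 6.39 and 6.84 with PBS. TAX1BP1 stood at 0.21 ± 0.19 in J82 and 0.51 ± 0.19 in RT112 (adjusted p = 0.133), with separate groups in RT112 alone.

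BECN1, WIPI1, ATG2B, GABARAPL1, SQSTM1 and OPTN rose in both lines, that is 6 of the 35, where 282 of all 22465 genes (1.26%) rose in both. They were 6 of the 13 that rose in J82, where the matching count over all genes was 282 of 1213. They were also 6 of the 9 that rose in RT112, where it was 282 of 1112. Each line was set against its own PBS arrays, while the residual spread of a gene was pooled over both. Without overlap in either line, 14 genes were higher, where 5.23% of all genes were. Across the 35 genes the responses of the lines correlated with Pearson's r = 0.62 and Spearman's rho = 0.615, and across all 22465 genes with 0.28 and 0.27. These correlations run over genes measured on the same arrays, which are not independent, and are descriptions.

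**Figure D4:**
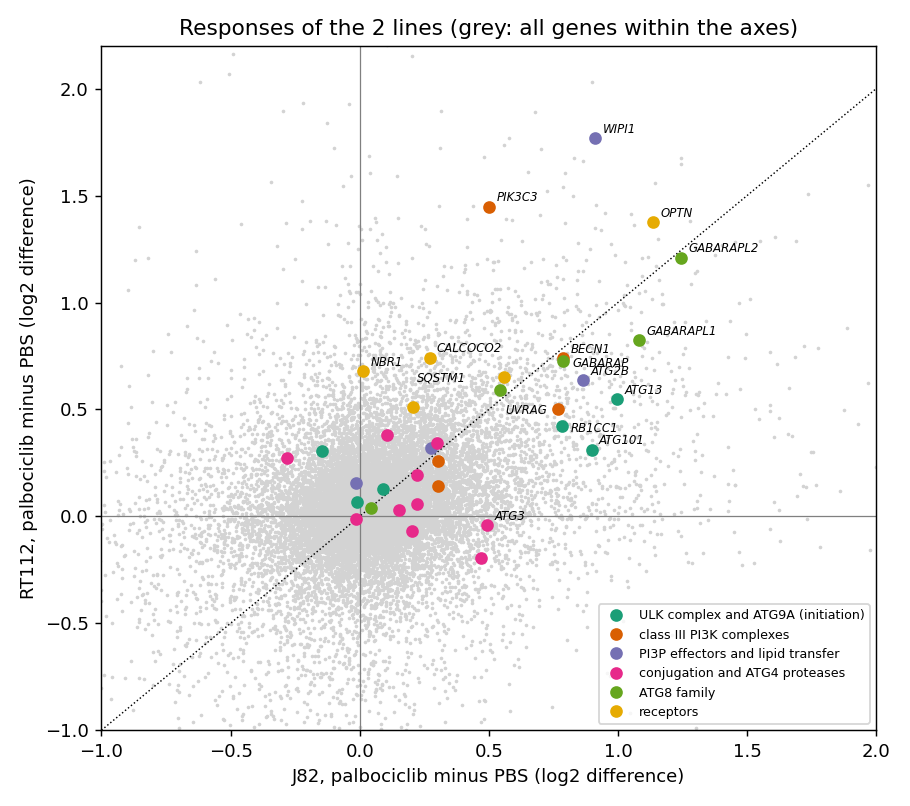
Log2 difference of palbociclib minus PBS in RT112 (y axis) against that in J82 (x axis) for the 35 autophagy genes, coloured by role, with the other genes that lie within the axes in grey and the line of equal response dotted. Genes called in at least 1 line are named, PIK3C3 and WIPI1 lie above the dotted line and ATG101 and ATG3 below it.

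No gene of the 35 passed the test of the difference between the responses, RT112 minus J82, in limma, where 4.57% of all genes did (1.83% with a higher and 2.74% with a lower response in RT112), although 9 had an unadjusted p under 0.05, where 14.6% of all genes did. The nearest were PIK3C3 at 0.95 ± 0.26 (adjusted p = 0.0576), NBR1 at 0.66 ± 0.21 (adjusted p = 0.105), WIPI1 at 0.86 ± 0.27 (adjusted p = 0.108) and ATG4C at -0.66 ± 0.22 (adjusted p = 0.117). A call in 1 line alone is therefore not shown to be a difference between lines. PIK3C3 passed without J82 PBS replicate 1 (1.06), J82 palbociclib replicate 3 (1.08), RT112 PBS replicate 3 (1.10) or RT112 palbociclib replicate 1 (1.04), WIPI1 without J82 palbociclib replicate 3 (1.08) and ATG101 without J82 palbociclib replicate 1 (-0.75). For the ATG8 genes the differences between responses ran from -0.26 to 0.05, with an SE of 0.51 for GABARAPL2. All 5 receptors had a larger difference in RT112, by 0.10 to 0.66.

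The untreated lines differed in 19 of these genes. In RT112 with PBS, 15 of the 35 genes were lower than in J82 with PBS and 4 were higher, where 14.7% and 12.8% of all genes were (27.5% in either direction). The groups did not overlap for 16 lower and 9 higher genes, where 22.4% and 29.2% of all genes were separate. The lower genes were spread over all roles but conjugation: 2 of initiation, 3 of the PI3-kinase complexes, 3 PI3P effectors or lipid transfer proteins, 3 ATG8 genes and 4 receptors. Of the 4 higher genes 3 belonged to conjugation.

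PIK3C3 had 7.01, 6.81 and 7.36 in RT112 with PBS, against 9.98, 10.39 and 10.22 in J82 with PBS (-3.14 ± 0.185, adjusted p = 1.09e-08). GABARAP stood at -2.59 ± 0.22, ULK2 at -2.47 ± 0.13, WIPI1 at -2.40 ± 0.19, OPTN at -2.23 ± 0.21 and GABARAPL1 at -2.18 ± 0.21. ATG13 was lower by a smaller step (-1.29 ± 0.19). ATG9A was the gene highest in RT112 relative to J82, with 10.67, 10.77 and 10.85 in RT112, against 8.79, 8.76 and 9.04 in J82 (1.90 ± 0.19, adjusted p = 2.38e-06). ATG5 (1.08 ± 0.16), ATG16L1 (0.86 ± 0.17) and ATG4C (0.50 ± 0.15) were also higher in RT112. The remaining lower genes were UVRAG (-0.81), ATG2A (-0.69), SQSTM1 (-0.67), NBR1 (-0.65), WIPI2 (-0.605), ATG14 (-0.57), MAP1LC3B (-0.56) and CALCOCO2 (-0.46).

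Of the 19 calls between the untreated lines, 16 held under all 22 alternatives that gave a value. Those of ATG4C, MAP1LC3B and CALCOCO2 were lost under other settings and without single arrays. Adjusting over all transcript clusters ended all 3, the common median that of ATG4C, quantile normalization that of MAP1LC3B and a required log2 difference of 0.5 that of CALCOCO2. Of single arrays, ATG4C was lost without J82 PBS replicate 2 (0.38) or RT112 PBS replicate 1 (0.48) or 3 (0.48), MAP1LC3B without J82 PBS replicate 1 (-0.37) or RT112 PBS replicate 1 (-0.60), 2 (-0.51) or 3 (-0.56), and CALCOCO2 without J82 PBS replicate 2 (-0.45) or 3 (-0.41) or RT112 PBS replicate 1 (-0.44), 2 (-0.48) or 3 (-0.46). In RT112 with palbociclib, WIPI1 (mean 7.98), OPTN (8.24), GABARAPL1 (7.48) and PIK3C3 (8.51) lay below their means in untreated J82 cells (8.60, 9.10, 8.84 and 10.20), while SQSTM1 (8.20) was at the J82 PBS mean (8.22).

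**Figure D5:**
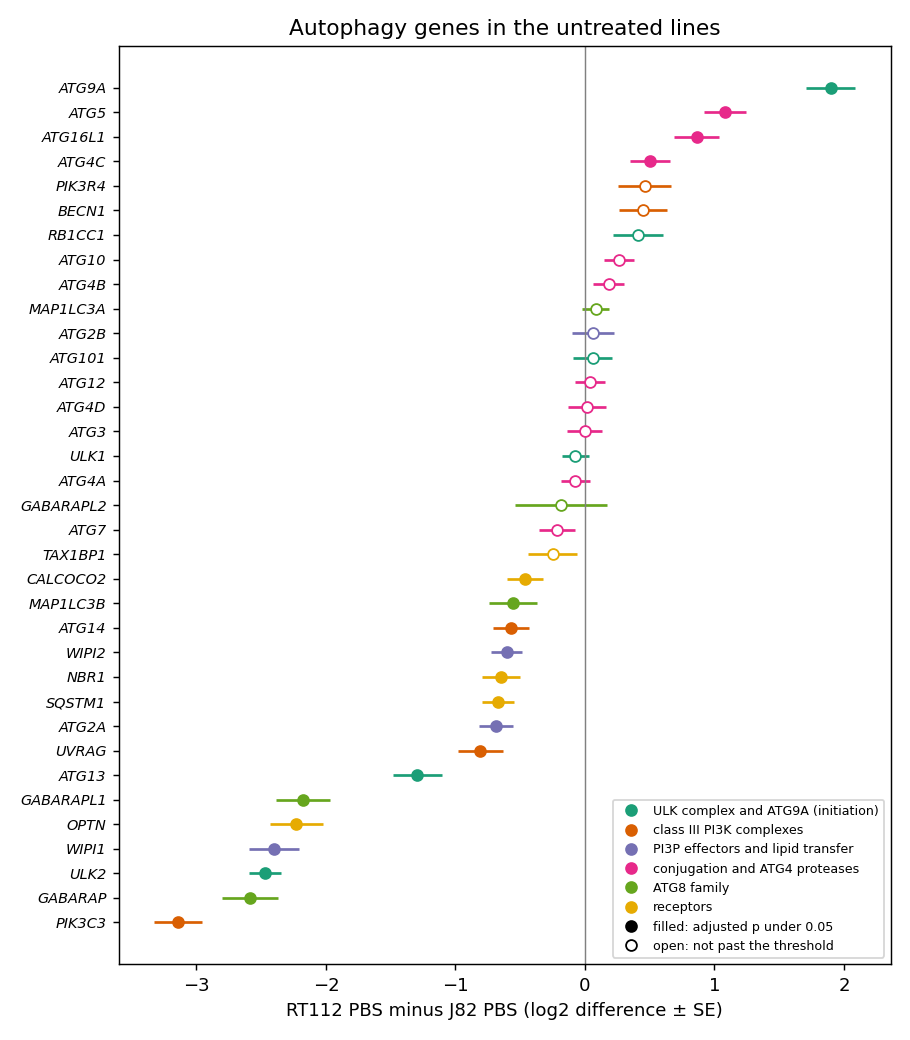
Log2 difference of RT112 PBS minus J82 PBS (x axis) with its SE from limma for the 35 autophagy genes, ordered by size and coloured by role (n = 3 arrays per group). Filled points passed an adjusted p under 0.05, with 15 left of 0 and 4 right of it.

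The promoters of 31 of the 35 genes were searched for short elements of factors known to act on autophagy genes: CACGTG, the E-box at the core of the element bound by TFEB and TFE3, GTCACGTG, which contains it with part of its flank, TGATGNAA for ATF4 with C/EBP partners, and GTAAACA for FOXO factors. Each promoter ran from 250 bases before to 50 after the start of the gene in RefSeq (GRCh38.p14), and both strands were read. CACGTG was in 2 of 31 promoters (6.45%), those of ATG3 and ATG14, against 7.43% of 27305 promoters and 8.56% of the 15247 promoters of genes tested here. The same 2 held GTCACGTG (6.45%), against 2.53% of all promoters and 3.36% of those of genes tested. GTAAACA was in 1, that of CALCOCO2 (3.23%, against 3.41% and 2.72%), and TGATGNAA was in none (3.67% of all and 2.67% of those of genes tested). The promoters with the E-box are printed with CACGTG in capitals, followed by those of WIPI1 and OPTN, which had the largest differences in RT112 of the genes that rose in both lines and held none of the 4 elements in this window.
ATG3, chr3:112561913-112562212, minus strand: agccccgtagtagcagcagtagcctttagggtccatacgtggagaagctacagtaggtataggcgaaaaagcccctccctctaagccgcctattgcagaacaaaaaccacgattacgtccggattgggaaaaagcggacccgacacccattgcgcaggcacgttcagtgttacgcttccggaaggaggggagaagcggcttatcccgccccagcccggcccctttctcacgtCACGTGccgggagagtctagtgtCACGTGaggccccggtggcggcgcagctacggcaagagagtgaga
ATG14, chr14:55411781-55412080, minus strand: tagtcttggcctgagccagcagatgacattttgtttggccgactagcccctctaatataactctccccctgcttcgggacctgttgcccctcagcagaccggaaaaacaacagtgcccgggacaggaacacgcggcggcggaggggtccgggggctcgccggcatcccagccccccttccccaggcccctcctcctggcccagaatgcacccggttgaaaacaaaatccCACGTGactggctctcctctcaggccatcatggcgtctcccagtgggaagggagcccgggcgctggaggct
WIPI1, chr17:68457447-68457746, minus strand: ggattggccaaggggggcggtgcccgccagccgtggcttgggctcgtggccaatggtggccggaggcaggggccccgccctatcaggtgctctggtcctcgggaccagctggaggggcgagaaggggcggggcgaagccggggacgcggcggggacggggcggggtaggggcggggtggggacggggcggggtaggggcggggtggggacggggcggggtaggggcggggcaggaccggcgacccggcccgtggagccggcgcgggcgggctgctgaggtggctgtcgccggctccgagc
OPTN, chr10:13099832-13100131, plus strand: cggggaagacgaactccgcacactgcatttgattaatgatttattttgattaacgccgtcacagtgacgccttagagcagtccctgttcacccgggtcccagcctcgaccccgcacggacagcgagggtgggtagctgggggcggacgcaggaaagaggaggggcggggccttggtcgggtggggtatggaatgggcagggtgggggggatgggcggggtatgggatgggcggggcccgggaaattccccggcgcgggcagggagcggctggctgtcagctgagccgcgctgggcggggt
Of the E-box promoters, ATG3 belonged to a gene that passed in J82 and ATG14 to one that passed in neither line. A match is a description of letters and not of binding.

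Beyond the core, 58 other genes of autophagy had a value, from lists of upstream regulators, membrane proteins, fusion factors, organelle receptors and transcription factors. In J82 16 rose and 1 fell, and in RT112 19 rose and 1 fell, with median differences of 0.265 and 0.32. Of all genes 5.4% rose and 2.78% fell in J82 and 4.95% rose and 3.53% fell in RT112, with medians of 0.04 and 0.035. The genes for fusion with the lysosome held 7 of 13 that rose in J82 and 5 of 13 in RT112. VPS39, a subunit of the HOPS tethering complex, rose by 1.06 ± 0.20 in J82 (adjusted p = 0.00441) and by 1.36 ± 0.20 in RT112 (adjusted p = 0.000504), and was among the 4 strongest rises in both.

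The stress transcription factor genes led in J82, with DDIT3 at 2.51 ± 0.24 (adjusted p = 2.68e-05) and ATF4 at 1.24 ± 0.205 (adjusted p = 0.00203), followed by ZFYVE1, a marker of the sites where autophagosomes form, at 1.17 ± 0.175. In RT112 the reticulum receptor CALCOCO1 rose by 1.28 ± 0.18, the mitochondrial receptor BNIP3 by 1.27 ± 0.16 and ATF4 by 1.22 ± 0.205. The genes that fell were SH3GLB1, a partner of the UVRAG complex, by 0.585 ± 0.14 in J82 (adjusted p = 0.0209), and RTN3, a receptor for tubular reticulum, by 1.17 ± 0.215 in RT112 (adjusted p = 0.00336). TFEB itself lay below the array medians in all 4 groups (4.69 and 4.77 in J82, 4.92 and 4.96 in RT112, palbociclib and PBS), and TFE3 did not pass in either line (-0.27 in J82 and 0.35 in RT112).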

How the data were processed

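Biotin-labelled total RNA was measured on Affymetrix arrays. The authors deposited log2 intensities per probe set, made with RMA and Affymetrix Expression Console, per the submitters' processing notes; versions and the genome build are not given in the sources used here. Of 70523 rows, 67528 are transcript clusters, of which 23781 carry 1 symbol, 1543 several and 42204 none here. The row with the highest mean over the 12 arrays of J82 and RT112 was kept for each symbol, leaving 22465 genes. No 2 arrays were identical. Precision is limited by the 3 arrays per group.

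A mean per group was estimated by limma 3.58.1 under R 4.3.3 (eBayes with an intensity trend, 8 residual degrees of freedom), with Benjamini-Hochberg adjustment over all genes. The SE rests on 1 spread per gene for all 12 arrays. In simulated data with known changes in J82, the fit recovered 18% of log2 changes of 0.5 and 75% of changes of 1, with 3 false calls. With that recovery, a gene that did not pass is not shown to be unchanged. Fewer genes were changed there than were called in J82, and noise was drawn independently for each array around the J82 PBS means. No shift of a whole array and no difference between lines was simulated. The 3 false calls therefore do not give the rate of false calls in these data. The members and the lists were chosen with earlier results of these data known. Named genes are all 35 members and, of the other autophagy genes, the 4 highest and 4 lowest past the threshold per line; TFEB, TFE3, MAP1LC3B2 and the markers were added for context after their values were seen. Alternatives were 11 other settings and each of 12 arrays left out.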

Additional observations from a re-analysis of the deposited data

Results flagged for a closer look

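Of the 58 autophagy genes outside the core machinery, 4 (6.9%) had responses that differed between the lines by the test of the difference itself (limma, RT112 response minus J82 response, n = 3 arrays per group, adjusted over all genes), where 4.57% of all genes did (1.83% higher and 2.74% lower), a share near that of the 58 genes. DDIT3 differed by -1.64 (adjusted p = 0.0112), with a log2 difference of 0.87 in RT112 and 2.51 in J82, and passed in each line. RTN3 differed by -1.21 (adjusted p = 0.0374), with a fall by 1.17 in RT112 and a value of 0.04 in J82. BNIP3 differed by 1.02 (adjusted p = 0.0169), with 1.27 in RT112, where it rose, and 0.26 in J82. SH3GLB1 differed by 0.85 (adjusted p = 0.0274), with 0.265 in RT112 and -0.585 in J82, where it fell.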

How the results depend on the processing

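Of the 22 calls of core autophagy genes in the 2 lines, 10 held under all 23 alternatives, 5 in J82 (ATG13, ATG101, ATG2B, GABARAPL1 and OPTN) and 5 in RT112 (PIK3C3, WIPI1, SQSTM1, OPTN and CALCOCO2), and no called value changed sign. Genes that rose in J82 numbered 13 (5.4% of all genes rose), and 7 with every array moved to a common median (3.69%) and 6 with J82 fitted alone (2.98%). ATG7 was lower in J82 after quantile normalization, the 1 gene called lower there. In RT112 9 rose (4.95% of all genes rose), and 22 with array weights (14.4%). The weights gave RT112 palbociclib replicate 1 a weight of 0.113, with the median over the 35 genes at 0.46 (0.345 unweighted). The difference between responses passed the threshold for 0 genes, where 1.83% of all genes were higher in RT112 and 2.74% lower. After quantile normalization it was called higher for 5 and lower for 1 (3.48% and 3.77% of all genes). It was called higher for 4 with array weights (5.44%) and for 1 with bright genes only (4.45%). Without the intensity trend (2.01%) and with the replicate block (2.12%) it was called higher for 1 each. Genes higher in untreated RT112 than in untreated J82 numbered 4, and 9 after quantile normalization and 8 with array weights. Of all genes 12.8% were higher in the main fit, 17.1% after quantile normalization and 20.6% with array weights. The causes of these shifts were not tested. Leaving out 1 array at a time gave 8 to 13 genes higher in J82 and 5 to 12 in RT112, 0 to 2 higher and 0 to 1 lower for the difference between responses, and 3 to 4 higher and 13 to 15 lower between untreated lines, with 0 genes lower in either line under palbociclib. Of all genes, 2.95% to 7.27% were then higher in J82 and 2.42% to 8.09% in RT112. For the difference between responses 1.18% to 3.2% were higher and 1.88% to 3.55% lower. Between untreated lines 10.3% to 16.8% were higher and 12.3% to 16.1% lower. The medians ran from 0.23 to 0.39 in J82 and from 0.31 to 0.46 in RT112. Whether the replicate numbers pair the samples is not settled by these values, and the main fit did not pair them. In J82 the correlation of same-numbered deviations ran from 0.075 to 0.19, and every treated array correlated best with its own number. In RT112 this correlation was 0.09, -0.19 and 0.17 for replicates 1, 2 and 3, and treated replicates 1 and 2 correlated best with another number. Over all genes, counts moved by over 1.5 times with array weights (3236 higher and 2544 lower in RT112, 1223 and 1161 for the difference between responses, 4635 higher in untreated RT112), after quantile normalization (1075 lower in J82, 781 higher for the difference between responses), with a common median (631 higher in RT112), over all transcript clusters (1124 lower in J82) and with J82 fitted alone (670 higher, 375 lower). Single arrays did so too: of 1112 genes higher in RT112 there were 608, 544 and 594 without RT112 PBS replicate 1, 2 and 3, and 1818, 604 and 568 without RT112 palbociclib replicate 1, 2 and 3. Of 1213 higher in J82 there were 772 and 723 without J82 PBS replicate 1 and 3 and 662 without J82 palbociclib replicate 3, and of 624 lower there were 400 without J82 palbociclib replicate 2. The difference between responses was higher for 265 genes without RT112 PBS replicate 1 and for 720 without RT112 palbociclib replicate 1, against 412. With the replicate block 15 genes rose in J82, with ATG4C and MAP1LC3B added, where 6.04% of all genes rose. In RT112 12 rose, with MAP1LC3B, GABARAP and GABARAPL2 added, where 5.67% of all genes rose. PIK3C3 then passed for the difference between responses and PIK3R4 between untreated lines. Dim probe sets such as MAP1LC3A have no detection value in the table.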
